A study of Homo sapiens with 20 samples.

Results

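Human mitochondrial DNA encodes 13 proteins, and 6 of them belong to the later complexes of oxidative phosphorylation. Their mRNAs are MT-CYB of complex III, MT-CO1, MT-CO2 and MT-CO3 of complex IV, and MT-ATP6 and MT-ATP8 of complex V. These 6 were chosen by name among the 36601 genes of the count table, and all 6 passed the filter on low counts, with between 3490 and 125750 counts in a library. The other 7 mRNAs of mitochondrial DNA encode complex I subunits and are used here for comparison. The 20 samples are of MDA-MB-231, a widely used human breast cancer line, in 5 groups of 4 that shared the culture steps (30000 cells to a well, 24 h of growth, 37 °C, 2 wells pooled into each sample). Untreated cells received neither particles nor light. The group called nanoparticles alone was kept for 4 h in 200 µl of medium with biomimetic particles at 0.1 mg/ml, and 3 further groups had the same particles followed by 10 min of 808 nm laser light with the temperature set to 46, 50 or 54 °C. Wells were irradiated in turn and then washed, no source used here gives the time from light to lysis, and a group with light and no particles was not analysed here.

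Levels were read with a 3′ end kit that primes on poly(A) tails, so a read marks an mRNA's 3′ end and not its whole length. Library totals lay between 2401180 and 7710977 counts, with the lowest group mean at 46 °C (2872173) and the highest at 54 °C (6769582). The 8 genes listed as expressed in MDA-MB-231, such as VIM, summed to group means of 5223 to 5809 CPM (TMM-scaled CPM, read counts relative to library size). Of 12 leukocyte, blood, endothelial and fibroblast markers, CD79A, LYZ, HBB and LUM were at 0 in all 20 libraries, and the sum over the list had group means of 4.09 to 13.1 CPM. The 7 luminal breast markers, known to be low in this line, summed to 27.1 to 37.7 CPM. Across genes, replicate libraries correlated in log2 CPM at 0.891 to 0.942. Separate cultures are not stated for the replicates, so each p-value measures only how these samples spread, which may be technical variation.

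Complex III passes electrons from ubiquinol to cytochrome c, complex IV passes them on to oxygen, and complex V, the ATP synthase, uses the proton gradient built by the others to make ATP. MT-CYB encodes cytochrome b, the catalytic core subunit of complex III. MT-CO1 encodes the complex IV subunit that holds the site where oxygen is reduced, MT-CO2 the subunit that receives electrons from cytochrome c, and MT-CO3 the third core subunit. MT-ATP6 encodes subunit a, which forms the proton path of the ATP synthase, and MT-ATP8 a small membrane subunit of the same enzyme. Mitochondrial DNA is transcribed into long RNAs that span many genes, which are cut mostly at the tRNAs between the mRNAs. Most of the mRNAs are then given short poly(A) tails. MT-ATP8 and MT-ATP6 stay joined in a single mature mRNA, and the remaining subunits of each complex come from nuclear genes.

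All 6 genes are read from the same strand, the plus strand of chromosome M in GRCh38 (GENCODE v29): MT-CO1 at 5904 to 7445, MT-CO2 at 7586 to 8269, MT-ATP8 at 8366 to 8572, MT-ATP6 at 8527 to 9207, MT-CO3 at 9207 to 9990 and MT-CYB at 14747 to 15887. None of them has an intron. The annotated 3′ ends of the genes are shown because the assay primes on poly(A) tails. MT-ATP8 lies ahead of MT-ATP6 in their joined mRNA, so its end is not the tailed end of that mRNA. From which site on the mRNA the reads counted for MT-ATP8 came was not tested. Nor was it tested whether the tails of MT-CO1 and MT-CO2 begin at their annotated ends, so the bases shown for them need not adjoin a tail. MT-ATP8 is given whole (chrM:8366-8572), with the 46 bases it shares with MT-ATP6 in capitals. The others are the last 50 annotated bases, with the encoded part of the stop codon in capitals: chrM:9158-9207 for MT-ATP6, chrM:7396-7445 for MT-CO1, chrM:8220-8269 for MT-CO2, chrM:9941-9990 for MT-CO3 and chrM:15838-15887 for MT-CYB. Sequences are the GENCODE v29 transcripts, 5′ to 3′.
MT-ATP8: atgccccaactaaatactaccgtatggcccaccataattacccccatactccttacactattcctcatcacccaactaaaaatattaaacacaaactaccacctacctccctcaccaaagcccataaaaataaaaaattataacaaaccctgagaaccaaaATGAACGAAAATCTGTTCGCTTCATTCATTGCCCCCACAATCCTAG
MT-ATP6: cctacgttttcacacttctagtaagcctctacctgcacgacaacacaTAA
MT-CO1: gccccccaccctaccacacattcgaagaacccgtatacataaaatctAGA
MT-CO2: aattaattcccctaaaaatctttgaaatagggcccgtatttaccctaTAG
MT-CO3: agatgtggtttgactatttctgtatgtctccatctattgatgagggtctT
MT-CYB: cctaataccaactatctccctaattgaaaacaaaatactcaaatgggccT

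MT-CO3 and MT-CYB end in 1 base of their stop codon, a T that the poly(A) tail completes, so their tails begin inside the reading frame. MT-CO2 ends in TAG and MT-CO1 in AGA, with all 3 bases encoded. The annotated MT-ATP6 ends in TAA, but its last A, at 9207, is also the first annotated base of MT-CO3. Whether the MT-ATP6 mRNA keeps that base, or its tail completes the stop codon, was not tested. Reads that end in the capitals of MT-ATP8 lie in both genes, and no source used here says how the authors' counting divided them. The values of MT-ATP8 and MT-ATP6 are therefore uncertain as single genes and are also given as a sum. A run of adenosines (AAAAAA, searched on the mRNA strand) occurs once in MT-ATP8, at 8497 to 8502 and 24 bases before the overlap, and once in MT-CO1, but not in the other 4. Of 82863 protein-coding transcripts, 15.8% hold this run in their last 207 bases, the length of MT-ATP8.

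The data showed a fall of these mRNAs at 46 °C and a rise at 50 °C. Their sum made up 4.77% ± 0.70 (SD, n = 4) of all counts in untreated cells, 5.29% ± 0.26 with particles and no light, 1.89% ± 0.24 at 46 °C, 7.996% ± 1.15 at 50 °C and 6.37% ± 0.38 at 54 °C. With mitochondrial reads left out of the library totals, the sum was 53738 ± 8761, 60109 ± 3272, 19858 ± 2612, 96638 ± 16096 and 73926 ± 5122 CPM in the same order (unscaled). All 13 mRNAs of mitochondrial DNA took 11.1% ± 1.65, 11.98% ± 0.63, 4.94% ± 0.52, 17.01% ± 1.95 and 13.8% ± 0.88. The order of the groups was the same on the 3 scales. These are shares of a library: fewer mitochondria in each cell and less of an mRNA in each mitochondrion cannot be told apart, nor can either from a change in the rest of the RNA.

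**Figure D1:**
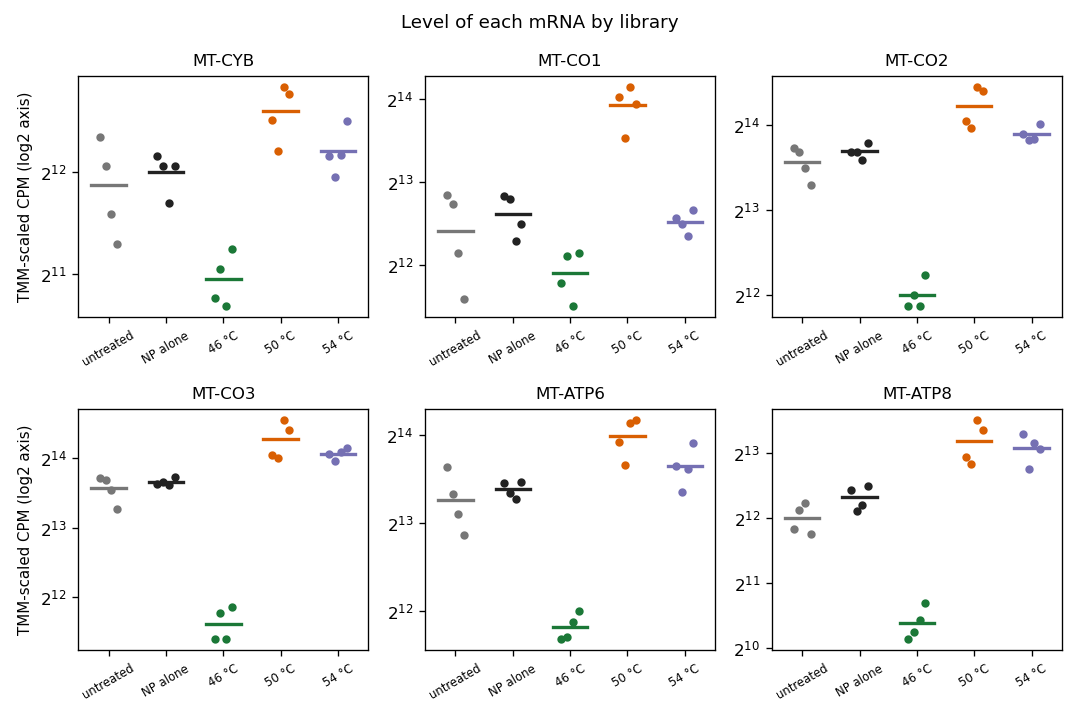
Each panel shows TMM-scaled CPM (log2 axis, its own range per panel) of an mRNA in the 20 libraries, with a point per library and a bar at the mean of a group of 4 (NP, nanoparticles). In all 6 panels the libraries at 46 °C lie below those with nanoparticles alone, and those at 50 °C lie above them.

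For MT-CYB, the only complex III subunit of mitochondrial DNA, the 4 untreated libraries held 5182, 4271, 3090 and 2518 CPM, and those with nanoparticles alone 4558, 4273, 3327 and 4282 CPM. At 46 °C the values were 1740, 2119, 1649 and 2436 CPM, at 50 °C 5850, 4738, 7298 and 6969 CPM, and at 54 °C 4567, 3968, 4598 and 5793 CPM. All libraries at 46 °C were below, and all at 50 °C above, every library with nanoparticles alone, while those at 54 °C overlapped them. On the log2 scale MT-CYB fell by 1.05 ± 0.21 (SE, n = 4 per group) at 46 °C against nanoparticles alone (edgeR, adjusted p = 0.0238), a 2.07-fold lower level. This call was lost without any of replicates 1, 2 and 3 at 46 °C (adjusted p = 0.0906, 0.065 and 0.0781) or replicates 1, 2 and 4 with nanoparticles alone (0.0733, 0.0667 and 0.0736), and within replicates 3 and 4 alone (−0.90, adjusted p = 0.411). At 50 °C it had 0.60 ± 0.21 (adjusted p = 0.243) and at 54 °C 0.20 ± 0.21 (adjusted p = 0.990), neither past the threshold of 0.05 by edgeR. The difference at 50 °C was called by limma-voom (0.57, adjusted p = 0.0261) and not by DESeq2.

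In complex IV, MT-CO1 passed the edgeR test at 50 °C but not at 46 °C. Untreated libraries held 7319, 6831, 4519 and 3059 CPM and those with nanoparticles alone 7283, 7070, 4990 and 5756 CPM. The values were 3500, 4408, 2885 and 4516 CPM at 46 °C, 16669, 11872, 18163 and 15779 CPM at 50 °C, and 6038, 5755, 5204 and 6475 CPM at 54 °C. The 50 °C libraries were above all 16 others, the 46 °C libraries were below all with nanoparticles alone but not below all untreated ones, and the 54 °C libraries lay within the range of nanoparticles alone. MT-CO1 rose by 1.32 ± 0.24 at 50 °C against nanoparticles alone (adjusted p = 0.0112), to a 2.49-fold higher level. Its difference at 46 °C was −0.71 ± 0.24 (edgeR, adjusted p = 0.228), which limma-voom called (−0.73, adjusted p = 0.0254), as did edgeR with only the 8 samples of the comparison (−0.71, adjusted p = 0.0373). DESeq2 did not call it. At 54 °C MT-CO1 had −0.10 ± 0.23 (adjusted p = 0.999), with a 95% interval of −0.60 to 0.40. Within replicates 3 and 4 alone the 50 °C difference was 1.66 with an adjusted p of 0.191.

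MT-CO2 fell at 46 °C and rose at 50 °C. It was at 13546, 13136, 11552 and 10093 CPM in untreated libraries and at 13203, 13144, 12380 and 14209 CPM with nanoparticles alone. It was at 3734, 4081, 3737 and 4817 CPM at 46 °C, at 16911, 15957, 22380 and 21614 CPM at 50 °C, and at 15241, 14465, 14637 and 16578 CPM at 54 °C. All 3 laser groups lay outside the range of nanoparticles alone, below it at 46 °C and above it at 50 and 54 °C. On the log2 scale MT-CO2 fell by 1.69 ± 0.10 at 46 °C (adjusted p = 8.77e-15), a 3.23-fold lower level, and rose by 0.54 ± 0.10 at 50 °C (adjusted p = 0.00138), while its 0.20 ± 0.10 at 54 °C did not pass (adjusted p = 0.866).

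MT-CO3 had the largest estimated fall of the 6 at 46 °C, to a 4.09-fold lower level than with nanoparticles alone. Its values were 13376, 13170, 11958 and 9879 CPM in untreated libraries and 12639, 12904, 12572 and 13574 CPM with nanoparticles alone. They were 2701, 3492, 2710 and 3741 CPM at 46 °C, 16893, 16384, 23864 and 21548 CPM at 50 °C, and 17009, 15949, 17295 and 18069 CPM at 54 °C. The laser groups again lay entirely below (46 °C) or above (50 and 54 °C) nanoparticles alone. MT-CO3 fell by 2.03 ± 0.12 at 46 °C (adjusted p = 4.59e-11) and rose by 0.61 ± 0.12 at 50 °C (adjusted p = 0.00741). Its 0.40 ± 0.12 at 54 °C did not pass (adjusted p = 0.368), although limma-voom called it (0.40, adjusted p = 0.025).

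For complex V, MT-ATP6 had 12781, 10298, 8799 and 7436 CPM in untreated libraries and 11187, 10408, 9864 and 11327 CPM with nanoparticles alone. It had 3268, 3335, 3735 and 4097 CPM at 46 °C, 15519, 12983, 18057 and 18453 CPM at 50 °C, and 12874, 10424, 12518 and 15393 CPM at 54 °C. Libraries at 46 °C were all below and those at 50 °C all above nanoparticles alone, and those at 54 °C overlapped it. MT-ATP6 fell by 1.57 ± 0.16 at 46 °C (adjusted p = 9.65e-06), a 2.96-fold lower level. Its 0.60 ± 0.15 at 50 °C missed the threshold (adjusted p = 0.0681) but was called by DESeq2 (adjusted p = 0.00197), by limma-voom (adjusted p = 7.84e-04) and without replicate 2 at 50 °C (0.69, adjusted p = 0.0276). At 54 °C it had 0.26 ± 0.15 (adjusted p = 0.943).

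MT-ATP8 was at 3621, 4435, 4781 and 3454 CPM in untreated libraries and at 5526, 4398, 4712 and 5753 CPM with nanoparticles alone. It was at 1118, 1206, 1379 and 1645 CPM at 46 °C, at 7826, 7278, 11612 and 10403 CPM at 50 °C, and at 10022, 6885, 9058 and 8551 CPM at 54 °C. Each laser group was separate from nanoparticles alone, and the 50 and 54 °C libraries overlapped each other. MT-ATP8 fell by 1.93 ± 0.17 at 46 °C (adjusted p = 3.2e-06), a 3.81-fold lower level, and rose by 0.86 ± 0.17 at 50 °C (adjusted p = 0.0167). The call at 50 °C was lost without nanoparticles-alone replicates 2 or 3 (adjusted p = 0.0615 and 0.0552), with only the 8 samples of the comparison in the fit (adjusted p = 0.0519) and within replicates 1 and 2 alone (0.61, adjusted p = 0.358). At 54 °C the difference was 0.76 ± 0.17 (adjusted p = 0.139), which DESeq2 called (0.76, adjusted p = 2.76e-04) and limma-voom called (0.75, adjusted p = 2.19e-04).

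Summing MT-ATP8 and MT-ATP6 removes the question of how shared reads were divided between them. The sum was 16402, 14733, 13580 and 10890 CPM in untreated libraries and 16713, 14806, 14577 and 17080 CPM with nanoparticles alone, then 4386, 4541, 5114 and 5742 CPM at 46 °C, 23345, 20261, 29670 and 28855 CPM at 50 °C, and 22896, 17309, 21576 and 23945 CPM at 54 °C. Every laser group was separate from nanoparticles alone, lower at 46 °C and higher at the other temperatures. The sum fell by 1.68 ± 0.14 at 46 °C (adjusted p = 1.07e-06) and rose by 0.69 ± 0.14 at 50 °C (adjusted p = 0.0193), and at 54 °C it had 0.44 ± 0.14 (adjusted p = 0.534). At 54 °C the sum was called by limma-voom (0.43, adjusted p = 0.0463), with only the 8 samples in the fit (0.44, adjusted p = 0.0195) and within replicates 3 and 4 (0.53, adjusted p = 0.0023), but not by DESeq2. The rise of the sum at 50 °C was lost without replicate 3 at 50 °C (adjusted p = 0.0544), without nanoparticles-alone replicates 2 or 3 (0.0685 and 0.0643) and within replicates 1 and 2 alone (0.47, adjusted p = 0.168).

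**Figure D2:**
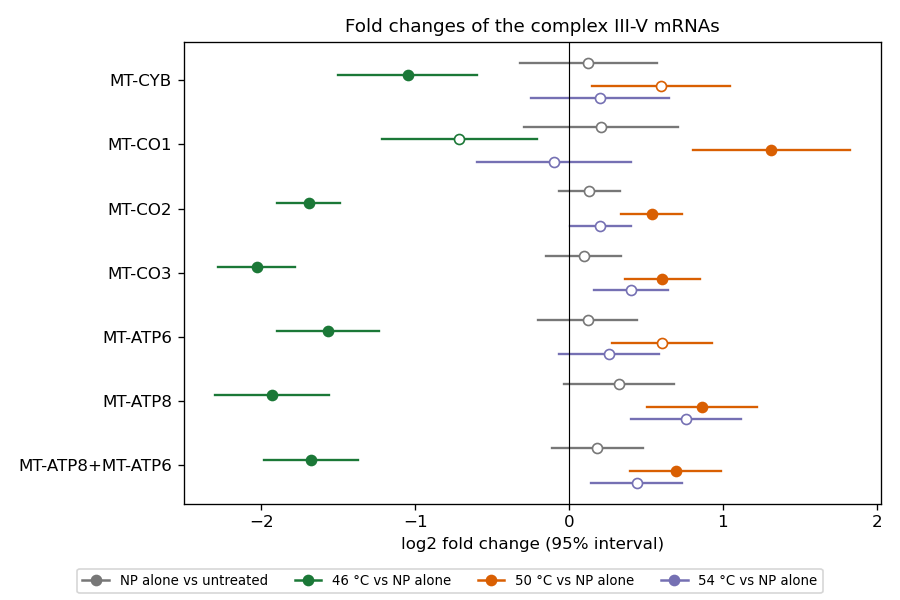
The x axis is the log2 fold change from edgeR with its 95% interval, for the 6 mRNAs and the summed MT-ATP8 and MT-ATP6 (y axis), in 4 comparisons given by colour (NP, nanoparticles). Filled points passed an adjusted p of 0.05 over all tested genes. At 46 °C every point but MT-CO1 is filled and negative, and at 50 °C every point but MT-CYB and MT-ATP6 is filled and positive.

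Particles without light were compared with untreated cells to see what the particles did to these mRNAs by themselves. None of the 6 changed by edgeR, limma-voom or DESeq2, and 0% of all 12149 tested genes were called by edgeR in either direction (479 genes and 0 of the 6 had an unadjusted p under 0.05). Replicate values of both groups overlapped for each of the 6. Log2 fold changes were 0.13 ± 0.21 for MT-CYB, 0.21 ± 0.24 for MT-CO1, 0.13 ± 0.10 for MT-CO2, 0.10 ± 0.12 for MT-CO3, 0.12 ± 0.15 for MT-ATP6 and 0.32 ± 0.17 for MT-ATP8 (adjusted p = 1.00 for each). The 95% intervals reached from −0.32 to 0.57 for MT-CYB and from −0.03 to 0.68 for MT-ATP8, so changes within those intervals were not excluded.

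At 46 °C against nanoparticles alone, edgeR called 5 of the 6 mRNAs lower and MT-CO1 did not pass, where 0.346% of all tested genes were called lower. All 6 had no overlap between the groups in the downward direction, against 3.28% of all genes. Their median log2 fold change was −1.63, and that of all genes 0.01. DESeq2 called 5 of the 6 and limma-voom 6. Over all genes DESeq2 called 109 higher and 82 lower of 9087, and limma-voom 69 higher and 31 lower of 12149. At 50 °C, edgeR called 4 higher (MT-CO1, MT-CO2, MT-CO3 and MT-ATP8), where 0.527% of all genes were called higher, and all 6 lay without overlap above nanoparticles alone, against 4.2% of all genes. DESeq2 called 5, with MT-ATP6 added, and limma-voom 6. Over all 12149 genes DESeq2 called 140 higher and 148 lower, and limma-voom 69 higher and 63 lower. The median of the 6 was 0.60, beside 0.02 for all genes. At 54 °C edgeR called 0 of the 6, and 0.123% of all genes in either direction. In edgeR 3 of the 6 and 698 genes in all had an unadjusted p under 0.05. limma-voom called 2 of the 6 (11 higher and 9 lower over all genes) and DESeq2 called 1 (25 and 11). MT-CO2, MT-CO3 and MT-ATP8 did not overlap and were higher, as were 2.19% of all genes, and the median of the 6 was 0.23. The 3 comparisons use the same nanoparticles-alone libraries and are not independent of each other.

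The laser groups were also compared with one another, which leaves the mean of nanoparticles alone out of the difference. Those libraries still entered the shared fit that gave the SE and p-values. All 6 mRNAs were higher at 50 than at 46 °C, where 0.584% of all genes were called higher, and all 6 without overlap, against 3.7% of all genes. The differences were 1.65 ± 0.22 for MT-CYB (adjusted p = 3.98e-04), 2.03 ± 0.24 for MT-CO1 (1.59e-04), 2.23 ± 0.10 for MT-CO2 (3.27e-18), 2.64 ± 0.12 for MT-CO3 (3.79e-13), 2.17 ± 0.16 for MT-ATP6 (1.44e-07) and 2.79 ± 0.18 for MT-ATP8 (2.72e-08). The summed MT-ATP8 and MT-ATP6 had 2.37 ± 0.15 (8.81e-09). In linear terms the 6 ran from 3.13-fold for MT-CYB to 6.94-fold for MT-ATP8. Within replicates 3 and 4 alone, MT-CYB (1.80, adjusted p = 0.0511) and MT-CO1 (2.20, adjusted p = 0.0779) missed the threshold.

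Between 54 and 50 °C edgeR called only MT-CO1 of the 6, where 0.14% of all genes were called lower. MT-CO1 fell by 1.41 ± 0.24 (adjusted p = 0.017), a 2.66-fold lower level, with no overlap between the groups. The share of all genes that were lower without overlap was not counted in this comparison, so the lack of overlap has no background beside it. The call for MT-CO1 was lost without replicates 1, 3 or 4 at 50 °C (adjusted p = 0.0672, 0.0768 and 0.0612) and without replicates 1, 2 or 3 at 54 °C (0.0802, 0.0811 and 0.092). It was also lost within replicates 3 and 4 alone (−1.53, adjusted p = 0.497). The others had −0.39 ± 0.21 for MT-CYB (adjusted p = 0.901), −0.34 ± 0.10 for MT-CO2 (0.283), −0.20 ± 0.12 for MT-CO3 (0.903), −0.34 ± 0.15 for MT-ATP6 (0.776) and −0.10 ± 0.17 for MT-ATP8 (0.999), each with overlapping libraries. Of these, limma-voom called MT-CO2 (−0.32, adjusted p = 0.049).

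At 54 °C the levels were above those at 46 °C for 5 of the 6 (0.239% of all genes were called higher), and all 6 had no overlap, against 2.68% of all genes. MT-ATP8 was 6.45-fold higher (2.69 ± 0.18, adjusted p = 5.22e-08), MT-CO3 5.40-fold (2.43 ± 0.12, 1.14e-12), MT-CO2 3.72-fold (1.90 ± 0.10, 4.13e-16), MT-ATP6 3.55-fold (1.83 ± 0.16, 1.53e-06) and MT-CYB 2.38-fold (1.25 ± 0.21, 0.008). MT-CO1 had 0.62 ± 0.24 (adjusted p = 0.435), and the summed MT-ATP8 and MT-ATP6 rose by 2.12 ± 0.15 (adjusted p = 5.18e-08). The call for MT-CYB was lost within replicates 3 and 4 alone (1.35, adjusted p = 0.187). The comparisons with 46 °C share its 4 libraries.

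Ordered by group mean, each mRNA was lowest at 46 °C and highest at 50 °C. For MT-CO1 the order was 46 °C (3827 ± 776 CPM), untreated (5432 ± 1999), 54 °C (5868 ± 533), nanoparticles alone (6275 ± 1091) and 50 °C (15621 ± 2686). For MT-ATP8 it was 46 °C (1337 ± 232 CPM), untreated (4073 ± 638), nanoparticles alone (5097 ± 646), 54 °C (8629 ± 1313) and 50 °C (9280 ± 2067). MT-CYB, MT-CO2, MT-CO3 and MT-ATP6 had the same order as MT-ATP8. In all 6, untreated cells and nanoparticles alone overlapped. Over the 20 libraries the log2 CPM of the 6 correlated with each other at 0.694 (MT-CO1 with MT-ATP8) to 0.995 (MT-CO2 with MT-CO3), a description in which the points share libraries and treatment groups.

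The makeup of the mitochondrial mRNA pool was examined within each library, as each mRNA's percent of the counts of all 13, because such a share does not depend on how libraries are scaled. It is not a comparison of levels between genes. MT-CO1 took 5.83%, 5.82%, 4.65% and 4.79% of the pool with nanoparticles alone and 5.72%, 5.61%, 4.16% and 3.70% in untreated libraries. It took 8.25%, 8.87%, 6.75% and 8.38% at 46 °C, 9.51%, 7.83%, 8.61% and 8.06% at 50 °C, and 4.17%, 4.63%, 3.80% and 4.203% at 54 °C. The share of MT-CO1 was thus higher at 46 and 50 °C than in every other library, although its level was lowest at 46 °C and highest at 50 °C. Against nanoparticles alone its log2 share differed by 0.61 at 46 °C, 0.69 at 50 °C and −0.32 at 54 °C.

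MT-CO3 had its lowest share at 46 °C. Its share was 10.9% ± 0.71 (SD, n = 4) with nanoparticles alone, then 6.67% ± 0.37 at 46 °C, 10.7% ± 0.73 at 50 °C and 12.2% ± 0.58 at 54 °C, against 11.1% ± 0.64 in untreated cells. MT-CO2 went from 11.2% ± 0.59 with nanoparticles alone to 8.67% ± 0.32 at 46 °C, and was 10.5% ± 0.59 at 50 °C and 10.9% ± 0.49 at 54 °C. MT-CYB had its highest share at 46 °C, 4.18% ± 0.28, beside 3.36% ± 0.54 to 3.46% ± 0.24 in the other groups. For MT-ATP6, shares were 9.03% ± 0.36 with nanoparticles alone and 7.69% ± 0.83 at 46 °C, 8.85% ± 0.41 at 50 °C and 9.11% ± 0.67 at 54 °C.

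MT-ATP8 and MT-ATP6 lie on the same mature mRNA, and the ratio of their counts was lowest at 46 °C and highest at 54 °C. The ratio of MT-ATP8 to MT-ATP6 was 0.430 ± 0.109 in untreated cells (0.283 to 0.543) and 0.476 ± 0.037 with nanoparticles alone (0.423 to 0.508), then 0.369 ± 0.025 at 46 °C (0.342 to 0.402), 0.568 ± 0.057 at 50 °C (0.504 to 0.643) and 0.679 ± 0.096 at 54 °C (0.556 to 0.778). Libraries at 46 °C lay below, and those at 54 °C above, all with nanoparticles alone. In log2 terms the ratio differed from nanoparticles alone by −0.37, 0.25 and 0.51 at 46, 50 and 54 °C, and by 0.62 between 50 and 46 °C. As a share of the 13, MT-ATP8 had 4.30% ± 0.49 with nanoparticles alone and 2.83% ± 0.37 at 46 °C, 5.02% ± 0.48 at 50 °C and 6.16% ± 0.72 at 54 °C.

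Each share and the ratio were tested in 7 comparisons with an exact two-sided permutation test over samples (49 tests). With 4 against 4 there are 70 arrangements and the smallest possible p is 0.0286, which 25 of the 49 tests reached. After Benjamini-Hochberg adjustment these had an adjusted p of 0.056, so 0 of 49 passed. Over 49 tests no difference could pass by itself even at the smallest possible p. The count of 0 therefore does not show that the shares were alike. Among the 25 were the differences above for MT-CYB, MT-CO1, MT-CO2, MT-CO3, MT-ATP8 and the ratio at 46 °C, for MT-CO1 at 50 °C, and for MT-CO1, MT-CO3, MT-ATP8 and the ratio at 54 °C. Shares of a fixed whole are not independent, since a higher share of one mRNA lowers the rest.

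**Figure D3:**
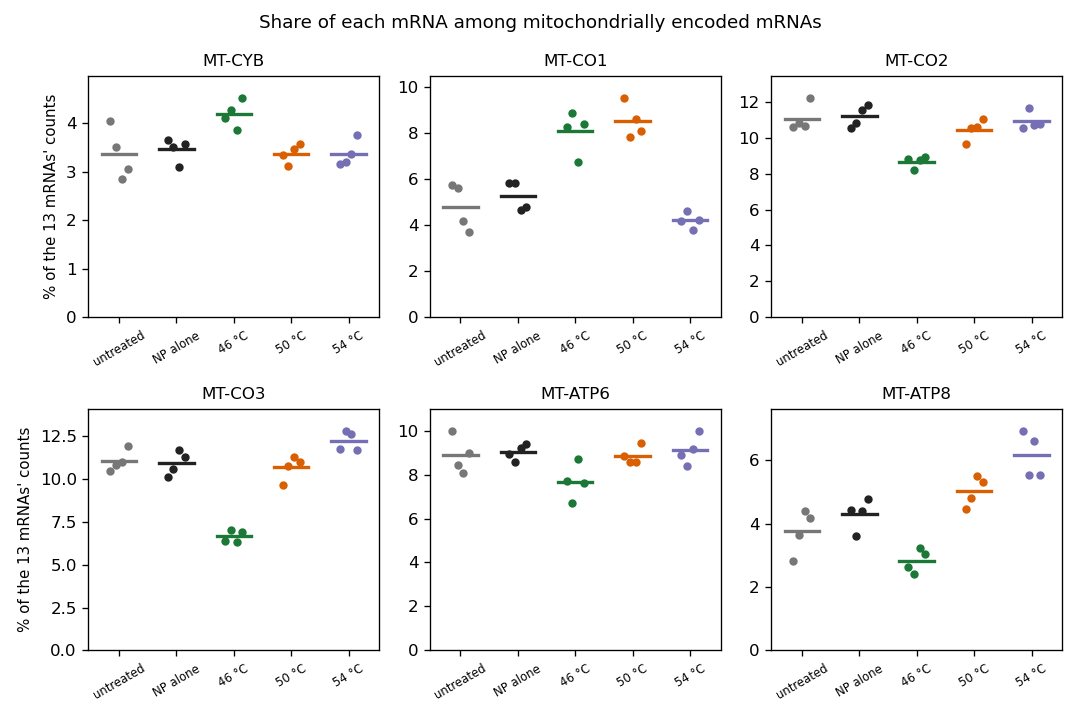
Each panel shows an mRNA's percent of the counts of the 13 mitochondrially encoded mRNAs (y axis from 0), with a point per library and a bar at the mean of a group of 4 (NP, nanoparticles). MT-CO1 lies higher at 46 and 50 °C than elsewhere, MT-CO3 lies lowest at 46 °C, and MT-ATP8 is lowest at 46 °C and highest at 54 °C.

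The complex I mRNAs that were called at 46 and 50 °C went the same way as the complex III to V mRNAs. At 46 °C against nanoparticles alone edgeR called 4 of 7 lower, with a median of −1.12 and a range of −1.80 to −0.61. At 50 °C it called 2 of 7 higher, with a median of 0.80 and a range of −0.52 to 0.92. At 54 °C edgeR called 1 of 7 lower, and the median of the 7 was 0.16. The mRNA called was MT-ND6 (named after its values were seen), the only one read from the other strand of mitochondrial DNA. It had −2.51 ± 0.44 (adjusted p = 0.0338). Whether the reads counted for MT-ND6 were primed on a poly(A) tail was not tested. From 46 to 50 °C edgeR called 6 of 7 higher. Over all 12149 tested genes it called 42 lower at 46 °C, 64 higher at 50 °C and 6 lower at 54 °C. It called 71 higher from 46 to 50 °C. The 6 mRNAs of complexes III to V made up 42.9% ± 1.30 of the counts of the 13 in untreated cells, 44.2% ± 1.19 in the group with nanoparticles alone, then 38.1% ± 0.89 at 46 °C, 46.9% ± 1.57 at 50 °C and 46.0% ± 0.37 at 54 °C. Whether the complexes differed was not tested beyond these shares.

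**Figure D4:**
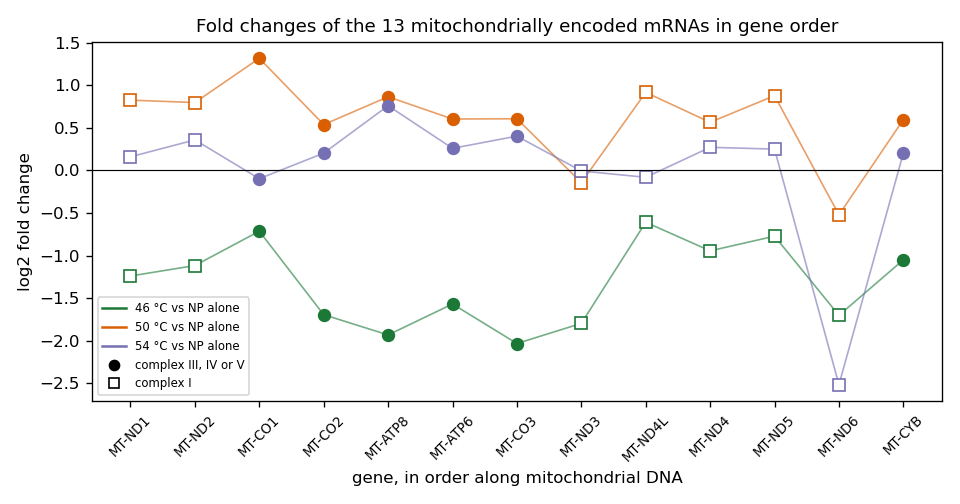
Log2 fold changes against nanoparticles alone (NP, y axis) of the 13 mRNAs, in their order along mitochondrial DNA (x axis, evenly spaced), with filled circles for complexes III to V and open squares for complex I. At 46 °C the adjacent MT-CO2, MT-ATP8, MT-ATP6, MT-CO3 and MT-ND3 lie between −2.03 and −1.57, as does MT-ND6 further along, and MT-CO1 lies at −0.71.

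In gene order, 5 neighbouring mRNAs were low at 46 °C: MT-CO2 (−1.69), MT-ATP8 (−1.93), MT-ATP6 (−1.57), MT-CO3 (−2.03) and MT-ND3 (−1.80) follow each other on mitochondrial DNA. MT-CO1, which precedes MT-CO2, had −0.71, and MT-ND4L, which follows MT-ND3, had −0.61. MT-ND6, which lies apart from them on the other strand, also had −1.70 ± 0.43 (adjusted p = 0.0878). This order was seen after the values were known and was not tested.

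Few of the nuclear genes that supply the other subunits of these complexes were called, and at 46 °C those went up. At 46 °C, of 38 nuclear-encoded subunits of complexes III, IV and V, 3 rose and 0 fell by edgeR, limma-voom and DESeq2 alike (1 had an unadjusted p under 0.05 for a fall), with a median of 0.18. Of all 12149 genes edgeR called 75 higher and 42 lower, with a median of 0.01. The 3 subunits were UQCRQ of complex III (0.45 ± 0.11, adjusted p = 0.0172), COX6C of complex IV (0.48 ± 0.12, adjusted p = 0.027) and ATP5F1E of the ATP synthase (0.39 ± 0.10, adjusted p = 0.0348). At 50 and 54 °C against nanoparticles alone edgeR called 0 of 38, none had an unadjusted p under 0.05, limma-voom and DESeq2 called 0, and the medians were −0.02 and −0.004. Between 50 and 46 °C 5 fell and 0 rose, among them UQCRQ (−0.44, adjusted p = 0.0188), COX6C (−0.47, adjusted p = 0.0306) and ATP5MG (−0.54, adjusted p = 0.0065), and between 54 and 46 °C 1 fell (UQCRQ, −0.44, adjusted p = 0.0284). Over all genes edgeR called 71 higher and 74 lower between 50 and 46 °C, and 29 and 48 between 54 and 46 °C. Nanoparticles alone against untreated cells gave 0 of 38 by the 3 tools, with 2 at an unadjusted p under 0.05 in edgeR.

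For genes that assemble the complexes or handle mitochondrial DNA and RNA, calls are given beside those over all 12149 genes. Of 33 assembly factors edgeR, limma-voom and DESeq2 called 0 at any temperature against nanoparticles alone. In edgeR 7, 5 and 1 of them had an unadjusted p under 0.05 at 46, 50 and 54 °C. So had 1336, 1385 and 698 of all genes. From 46 to 50 °C edgeR called 2 of the 33 lower, and 74 of all genes. One of these was UQCC3, a complex III assembly factor, at −0.79 ± 0.20 (adjusted p = 0.0219). Of 14 genes of mitochondrial DNA maintenance and transcription, such as POLRMT and TFAM, edgeR and limma-voom called 0 in any of the 7 comparisons. DESeq2 called 1, lower at 54 than at 46 °C, and 65 of all genes. At an unadjusted p under 0.05 edgeR had at most 3 of the 14 in a comparison. This was at 46 and at 50 °C against nanoparticles alone, with 1336 and 1385 of all genes. Of 19 genes of mitochondrial RNA processing, polyadenylation and decay, TRMT10C, a subunit of the enzyme that cuts tRNA 5′ ends from the long transcripts, rose at 50 °C against nanoparticles alone (0.67 ± 0.16, adjusted p = 0.0191). SLIRP, which stabilises mitochondrial mRNAs together with LRPPRC, fell from 46 to 54 °C (−0.50 ± 0.12, adjusted p = 0.0324). In each of these comparisons edgeR called 1 of the 19. Over all genes it called 64 higher and 84 lower in the first, and 29 and 48 in the second.

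Some of the RNAs listed as signs of RNA quality also differed between the groups. The 8 nuclear long noncoding RNAs, whose best known members stay in the nucleus, summed to 1948 CPM with nanoparticles alone (1541 to 2193), 3764 at 46 °C (3250 to 4545), 4096 at 50 °C (3525 to 4792) and 4694 at 54 °C (4056 to 5162), and to 2529 in untreated cells (1678 to 3285). Most of each sum was MALAT1, at 1562 CPM with nanoparticles alone and 3331, 3725 and 4183 CPM at 46, 50 and 54 °C. Of the 7 measured, edgeR called 3 higher at 46 °C, 2 higher and 1 lower at 50 °C, and 2 higher at 54 °C. Their medians were −0.01, 0.08 and 0.45. Over all 12149 genes edgeR called 75 higher and 42 lower at 46 °C, 64 and 84 at 50 °C, and 9 and 6 at 54 °C. Replication-dependent histone mRNAs, which normally lack poly(A) tails, summed to 615 CPM with nanoparticles alone (452 to 828), 880 at 46 °C (715 to 1146), 1251 at 50 °C (1076 to 1462) and 722 at 54 °C (681 to 777), and to 817 in untreated cells (471 to 1116). Of the 9 measured, edgeR called 2 higher at 50 °C and 0 at 46 or 54 °C. At those 2 temperatures 3 and 2 had an unadjusted p under 0.05, as had 1336 and 698 of all genes. By limma-voom 3 and by DESeq2 5 were higher at 50 °C (69 and 140 over all genes), and both called 0 at the other temperatures. The histone sum was highest at 50 °C, as were the 6 mitochondrial mRNAs, and the part of either list in the mitochondrial results was not tested.

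To place the pattern among other genes, the mean log2 CPM of the 6 was correlated with each of 8168 tested nuclear genes with a mean of at least 10 CPM, over the 20 libraries. The highest Pearson r were those of CCN1 (0.835), ZBTB7A (0.821), RPL28 (0.820), PLP2 (0.814) and PRPF8 (0.804). CCN1, a secreted matrix protein, had group means of 572 to 1037 CPM in the groups other than untreated and 46 °C, 517 CPM in untreated cells and 423 CPM at 46 °C. The lowest were IER5 (−0.893), HSPA1A (−0.885) and HSPA1B (−0.883). HSPA1A, a heat-inducible chaperone, had a mean of 1760 CPM at 46 °C and 20.97 to 28.6 CPM in the other groups. These correlations are descriptions over libraries that share treatment groups, and carry no test.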

How the data were processed

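Gene counts from 3′ end RNA sequencing of 20 MDA-MB-231 samples were analysed. The deposited values are estimated counts per gene, which the authors obtained with STAR, Salmon and GRCh38 (per the submitters' processing notes). The tool versions, annotation, strand setting and any molecular identifiers are not given in sources used here. All columns were matched to samples by the column names in the labels. In each library 1.74% to 2.90% of the values of the 36601 genes were not whole, and these were rounded. The table held 13 mitochondrial mRNAs and no row for a nuclear copy of them, and reads from such copies could not be separated.

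Counts were tested with edgeR 4.0.16 (R 4.3.3): TMM scaling, filterByExpr (minimum count 10, minimum total 15; 12149 genes, holding at least 99.67% of each library's counts), and robust quasi-likelihood fitting with a mean for each of 5 groups (20 samples). p-values were adjusted by Benjamini-Hochberg over all tested genes and called under 0.05. Log2 CPM for correlations used a prior count of 2. The summed MT-ATP8 and MT-ATP6 replaced both in a separate fit. Every fold change is on the log2 scale, with its SE and n = 4 per group. The 30 replicate pairs gave chi-squares of 7.55 to 23.4 per degree of freedom, so none was counted as a duplicate. PCR copies are not independent molecules, so depth covers counting error only.

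Alternatives were limma-voom (limma 3.58.1), DESeq2 1.42.0, DESeq2 size factors, library totals alone, totals without mitochondrial reads, no filter, a replicate block, replicates 1 and 2 or 3 and 4 alone, only the compared samples, and leaving out each replicate. Counts were also simulated for all 20 libraries from the means and spread of all samples, with changes put into the 46 °C group (11793 genes). Between 46 °C and nanoparticles alone, the test recovered 45.4% of 97 genes changed by a log2 of 1 and 78.1% of 96 changed by 2. Of its calls 6.30% were false. The genes named are the 6 mRNAs, the called member with the smallest p of each list and comparison, and the 5 highest and 3 lowest correlations. The mRNAs, gene lists and alternatives were chosen with earlier results of these data known.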

Additional observations from a re-analysis of the deposited data

Results flagged for a closer look

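In untreated replicate 4, MT-CO2 made up 12.2% of the counts of the 13 mitochondrially encoded mRNAs, while the other 3 untreated libraries had 10.6% to 10.8%. The gap to the nearest library was 0.873 of the group's range, above Dixon's critical value of 0.829 for 4 samples. This was 1 of 65 sets of 4 values checked, and chance passes that value in about 1 of 20.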

How the results depend on the processing

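Leaving mitochondrial reads out of library totals moved the 49 log2 fold changes of the 6 mRNAs and of the summed MT-ATP8 and MT-ATP6 by at most 0.0078 and ended or added no call; DESeq2 size factors moved them by at most 0.0051. Library totals alone moved them by up to 0.179, shifted the median of all genes by −0.10 at 50 °C against nanoparticles alone and −0.18 at 50 against 46 °C, and gave calls over all genes of 50 higher and 227 lower (64 and 84 with TMM), 46 and 374 (71 and 74), 95 and 33 at 46 °C (75 and 42), 22 and 16 at 54 against 50 °C (7 and 17), and 21 and 81 at 54 against 46 °C (29 and 48). Apart from leaving out replicates, the fold changes kept direction and side of the threshold in 448 cases, gained a call in 26, lost it in 9 and changed sign in 7.

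At 54 °C against nanoparticles alone, where edgeR called 0 of the 6, 2 were called with no filter, 1 within replicates 1 and 2, 2 within replicates 3 and 4, 2 with only the 8 samples, 2 by limma-voom and 1 by DESeq2. Over all genes the same settings called 26 higher and 12 lower of 19022, 10 and 5 of 12428, 16 and 6 of 12103, 12 and 7 of 11374, 11 and 9 of 12149, and 25 and 11 of 12149, beside 9 and 6 of 12149 in edgeR's fit to all samples. Between 54 and 50 °C the count of 1 became 2 with no filter (6 higher and 23 lower over all genes, beside 7 and 17) and 2 with limma-voom (7 and 38), and 0 to 1 with a replicate left out. The cause was not tested. Leaving out a replicate gave 4 to 5 called at 46 °C, 3 to 5 at 50 °C, 6 between 50 and 46 °C and 5 between 54 and 46 °C. The sign turned within replicates 1 and 2 for nanoparticles alone against untreated cells (MT-CYB −0.099, MT-CO2 −0.018, MT-CO3 −0.056, MT-ATP6 −0.096), for MT-CYB at 54 °C against nanoparticles alone (−0.047) and for MT-ATP8 between 54 and 50 °C (0.16), and within replicates 3 and 4 for MT-CO1 at 54 °C against nanoparticles alone (0.12). None of these 7 was called. With a replicate left out, MT-ATP8 between 54 and 50 °C ran from −0.20 to 0.029 and MT-CYB with nanoparticles alone from −0.025 to 0.32.

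Taken as a share of the 6 mRNAs instead of the 13, the log2 difference changed sign for MT-CO2 (−0.024) and MT-ATP6 (−0.015) with nanoparticles alone, MT-ATP6 at 54 °C against nanoparticles alone (−0.048), MT-CO1 (−0.22), MT-CO2 (−0.030) and MT-ATP6 (−0.090) between 50 and 46 °C, MT-CYB between 54 and 50 °C (0.025) and MT-ATP6 between 54 and 46 °C (−0.023). With a replicate left out, share differences that crossed 0 were, for nanoparticles alone against untreated cells, MT-CYB (−0.026 to 0.14), MT-CO2 (−0.0089 to 0.067), MT-CO3 (−0.051 to 0.021), MT-ATP6 (−0.016 to 0.085) and the ratio (−0.0088 to 0.30). At 50 °C they were MT-CYB (−0.086 to 7.6e-04) and MT-CO3 (−0.070 to 0.016), at 54 °C MT-ATP6 (−0.036 to 0.049), between 50 and 46 °C MT-CO1 (−0.0024 to 0.13), and between 54 and 50 °C MT-CYB (−0.057 to 0.027) and MT-ATP6 (−0.0062 to 0.078). Group mean library totals ran from 2872173 at 46 °C to 6769582 at 54 °C, so depth and treatment cannot be told apart. The lowest count of the 6 was 3490.

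A replicate block called the same members as the fit without it, 5 at 46 °C, 4 at 50 °C, 0 at 54 °C and 6, 1 and 5 between temperatures, with fold changes moved by at most 0.029. Over all genes it raised the calls from 75 higher and 42 lower to 161 and 108 at 46 °C, from 64 and 84 to 152 and 181 at 50 °C, from 9 and 6 to 27 and 19 at 54 °C, from 71 and 74 to 174 and 179 between 50 and 46 °C, from 7 and 17 to 32 and 36 between 54 and 50 °C, and from 29 and 48 to 70 and 90 between 54 and 46 °C, so the shares of all genes printed beside the 6 hold for the fit without it. DESeq2 called 109 and 82, 140 and 148, 25 and 11, 125 and 135, 30 and 28, and 54 and 65 in the same order. It gave an adjusted p to 9087, 12149, 12149, 5083, 4847 and 12149 genes in these comparisons. Same-numbered replicates correlated at 0.022 to 0.066 in their deviations from the group means, and 7 of 20 samples correlated best with their own number, and the labels do not say what the number stands for, so the numbers were not used as pairs.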
